A study of Homo sapiens with 5 samples.

Results

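Augmin is a protein complex made of the products of 8 genes, HAUS1 to HAUS8, and all 8 were measured among the 18239 genes read on these arrays. Its genes were taken from the probe sets (groups of array probes for one transcript) that named a single member, 17 in all, and the value of a gene on an array was the median of its probe sets. The members were chosen by name, but the complex was selected on the differences of its genes between these same arrays, so their values are given as a description, without a test. Expression was measured in GFP-SAS cells, a squamous carcinoma line from human tongue labelled with green fluorescent protein. Treatments lasted 24 h, with siAURKA-1 or siAURKA-2 (10 nM), 2 small interfering RNAs against AURKA, with a non-targeting siRNA (siNT), with MLN8237 (100 nM), an Aurora A kinase inhibitor also called alisertib, or with DMSO, its vehicle. All cells came from 1 line, each of the 5 treatments was read on 1 Affymetrix GeneAtlas array, and the sequences of the siRNAs were not used here.

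Augmin binds along the side of an existing spindle microtubule and brings the gamma-tubulin ring complex to it, so that a new microtubule branches off. Cells that lack augmin form spindles with fewer microtubules and weaker kinetochore fibres. The subunits assemble in a pair of tetramers: T-II, with HAUS2, HAUS6, HAUS7 and HAUS8, carries the microtubule-binding end, and T-III holds HAUS1, HAUS3, HAUS4 and HAUS5. Aurora A, the kinase encoded by AURKA, acts on centrosomes and spindles, and HAUS8 is among the proteins it phosphorylates.

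The deposited values had been centred per probe set, so that the median of the 5 arrays was 0 in each of the 49386 probe sets. They compare arrays for one gene and give no level, so neither the presence of squamous cell markers nor the order of the subunits by abundance could be read. The values are taken as log2, differences are log2 differences, and counts use 1.5-fold (0.585 in log2). Of all probe sets, 52.1% were listed at exactly 0 on 2 or more arrays. The shares of all genes given below include such probe sets. With 1 array per treatment no difference has a replicate check or an error. Precision is limited by the number of arrays. The probe set that named AURKA alone showed the knockdown: its centred value was -3.36 under siAURKA-1 and -2.64 under siAURKA-2, against 0.00 with siNT, and 0.64 with MLN8237 against 0.15 with DMSO. Of 8 squamous epithelial markers, 5 were measured, and their median difference from siNT was 0.10 under siAURKA-1 and -0.22 under siAURKA-2, where the basal keratin gene KRT5 differed most (-1.82). The part of this shift in the augmin values was not tested. The measured markers of fibroblasts (5), leukocytes (3) and endothelial cells (3) differed by between -0.16 and 0.09 in the siRNA and MLN8237 comparisons.

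All 8 augmin genes had their lowest value of the 5 arrays under siAURKA-1. How many of all genes were lowest on that array was not counted. Against siNT, 6 of the 8 were at least 1.5-fold lower with this siRNA and 0 were higher, against 4.48% of all 18239 genes that were this much lower and 2.57% that were this much higher. HAUS8, HAUS1 and HAUS2 showed the largest differences from siNT, whereas against DMSO these were HAUS1, HAUS8 and HAUS4. HAUS8 and HAUS1 were at least 2-fold lower than with siNT, as were 1.38% of all genes. The median difference of the 8 genes was -0.68, against 0.00 for all genes. With siAURKA-2 the difference was smaller: 7 of the 8 lay below siNT, as did 7722 of all 18239 genes, with a median of -0.32 for the 8. Of the 8, 0 reached 1.5-fold, against 3.11% of all genes lower by that much and 1.96% higher. With MLN8237 the median difference from DMSO was -0.03 and 0 of the 8 reached 1.5-fold, against 0.115% of all genes lower and 0.367% higher. Between the control arrays, siNT minus DMSO, 0 of the 8 reached 1.5-fold, against 0.554% of all genes lower and 1.53% higher. Fewer cells in the cell cycle stages that use augmin and less of its mRNA per cell cannot be told apart in bulk RNA.

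**Figure D1:**
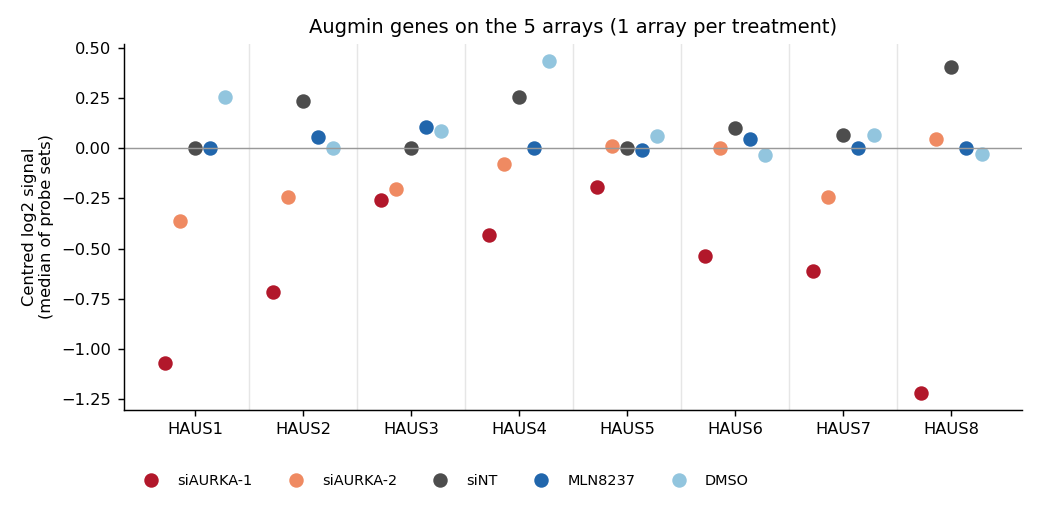
Centred log2 signal (vertical axis, median of the probe sets of a gene) of the 8 augmin genes on the 5 arrays, with 1 point per treatment. The siAURKA-1 point is the lowest for each gene, from -0.19 for HAUS5 to -1.22 for HAUS8, and siAURKA-2 is the second lowest for 5 of the 8. The shares of all genes with these arrays lowest or second lowest were not counted.

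HAUS8, the T-II subunit whose N-terminal end binds microtubules, varied most. Its centred value was -1.22 under siAURKA-1, 0.05 under siAURKA-2 and 0.40 with siNT, and 0.00 with MLN8237 and -0.03 with DMSO. The siAURKA-1 array stood far below the other 4, and the siNT array was the highest. The difference between siAURKA-1 and siNT was -1.62, which is 3.08-fold lower and leaves 32.5% of the siNT signal. Only 41 of the 18239 genes, HAUS8 included, were that low or lower in this comparison. Against DMSO the siAURKA-1 difference was -1.19, and 104 genes, HAUS8 included, were that low or lower. With siAURKA-2 the difference from siNT was -0.36, but because siNT itself was 0.43 above DMSO, the same array lay 0.07 above DMSO. HAUS8 was read by 1 probe set, so no agreement between probe sets could be checked.

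HAUS2, a T-II subunit first described as the centrosomal protein CEP27, read -0.72 under siAURKA-1, -0.24 under siAURKA-2 and 0.23 with siNT, and 0.05 with MLN8237 and 0.00 with DMSO. Both siRNA arrays against AURKA lay below the other 3. Its difference from siNT was -0.95 (1.93-fold lower) under siAURKA-1 and -0.47 (1.39-fold lower) under siAURKA-2, whose largest difference among the 8 genes this was. The 2 probe sets of HAUS2 gave -0.998 and -0.900 under siAURKA-1, and -0.54 and -0.40 under siAURKA-2.

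HAUS6, the subunit through which augmin contacts NEDD1 and the gamma-tubulin ring complex, read -0.54 under siAURKA-1, 0.00 under siAURKA-2 and 0.10 with siNT, and 0.05 with MLN8237 and -0.03 with DMSO. Only the siAURKA-1 array was set apart, by -0.64 from siNT, which is 1.56-fold lower and only just past the 1.5-fold line. Against DMSO the difference was -0.51, short of that line. Of its 4 probe sets, 3 were lower under siAURKA-1 than with siNT (-0.61, -0.69 and -0.80), while the other one was listed at exactly 0 on 4 of the 5 arrays. With MLN8237, 3 of the 4 were higher than with DMSO, by 0.16, 0.38 and 0.40, and the other gave -0.09, while the gene value differed by 0.08. The median of these 4 differences was 0.27. The 0.38 came from the probe set listed at exactly 0 on the other 4 arrays. Behind the 0.40 was a DMSO value of -0.40, with MLN8237 at 0.00. Against siNT the direction turned, as 3 of the 4 probe sets were lower with MLN8237 and 1 was higher, with a gene value difference of -0.05.

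HAUS7, a T-II subunit also known to bind the deubiquitinase UCHL5, read -0.61 under siAURKA-1, -0.24 under siAURKA-2 and 0.07 with siNT, and 0.00 with MLN8237 and 0.07 with DMSO. Both AURKA siRNA arrays lay below the other 3, and the siNT and DMSO arrays were level. The difference from siNT was -0.68 (1.60-fold lower) under siAURKA-1 and -0.31 under siAURKA-2. All 3 probe sets were lower with both siRNAs, over a wide span, from -1.18 to -0.52 under siAURKA-1 and from -0.70 to -0.24 under siAURKA-2. A further 2 probe sets named TREX2 beside HAUS7, so that their signal cannot be assigned to either gene. They gave -0.85 and -1.20 under siAURKA-1, and both gave -0.39 under siAURKA-2.

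In the T-III tetramer, HAUS1 differed most. This coiled-coil spindle protein read -1.07 under siAURKA-1, -0.36 under siAURKA-2 and 0.00 with siNT, and 0.00 with MLN8237 and 0.26 with DMSO. The 2 AURKA siRNA arrays were the lowest, and DMSO alone lay above siNT and MLN8237. HAUS1 was 2.10-fold lower under siAURKA-1 than with siNT (-1.07) and 1.29-fold lower under siAURKA-2 (-0.36). Set against DMSO these differences were larger, at -1.33 under siAURKA-1 and -0.62 under siAURKA-2. No other augmin gene value of siAURKA-2 passed 1.5-fold against either control. A single probe set read HAUS1.

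HAUS4, a T-III subunit, read -0.43 under siAURKA-1, -0.08 under siAURKA-2 and 0.25 with siNT, and 0.00 with MLN8237 and 0.44 with DMSO. Here the DMSO array was the highest, above siNT. The differences from siNT were -0.69 (1.61-fold lower) and -0.33, and those from DMSO were -0.87 and -0.51. HAUS4 also had the largest MLN8237 difference of the complex, -0.44 against DMSO, or 1.35-fold lower. Of all genes, 65 were that low or lower with MLN8237, HAUS4 included. Against siNT the MLN8237 difference was -0.25, and HAUS4 too had 1 probe set.

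HAUS3 and HAUS5, the remaining T-III subunits, had the narrowest ranges over the 5 arrays and the smallest siAURKA-1 differences. HAUS3 read -0.26 under siAURKA-1, -0.21 under siAURKA-2 and 0.00 with siNT, and 0.10 with MLN8237 and 0.09 with DMSO. It was 1.20-fold lower under siAURKA-1 than with siNT and 1.15-fold lower under siAURKA-2, so that the siRNAs lay close together in the gene value. Its 3 probe sets were at odds: they gave -0.62, -0.26 and 0.02 under siAURKA-1, and -0.33, -0.21 and 0.00 under siAURKA-2. HAUS5 read -0.19 under siAURKA-1, 0.01 under siAURKA-2 and 0.00 with siNT, and -0.01 with MLN8237 and 0.06 with DMSO. Of its 2 probe sets, one had a siAURKA-1 minus siNT difference of -0.38 and the other was listed at exactly 0 on 3 of the 5 arrays, siAURKA-1 and siNT among them.

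Over the whole complex, 14 of the 17 probe sets were lower under siAURKA-1 than with siNT, 1 was higher and 2 were equal, and 11 of the 17 were at least 1.5-fold lower, against 5.65% of all 45253 probe sets that name 1 gene. With siAURKA-2, 14 were lower, 2 higher and 1 equal, and 1 was at least 1.5-fold lower, a probe set of HAUS7 (-0.70), against 4.56% of all single-gene probe sets. With MLN8237, 8 probe sets were lower than with DMSO and 9 were higher. The shares of all single-gene probe sets that were lower, higher or equal were not counted. Probe sets of the same gene are not independent readings. In the 5 genes with several probe sets, 11 of the 14 had the direction of the gene value in each of these comparisons, a value that is itself their median.

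**Figure D2:**
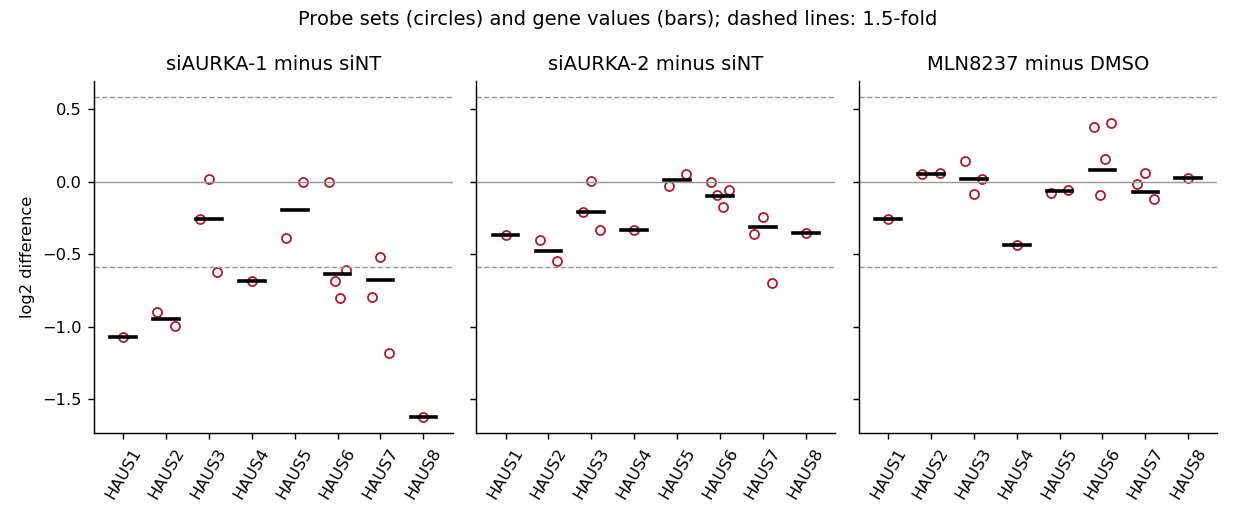
Log2 difference (vertical axis) of each probe set (circles) and each gene value (bars) of HAUS1 to HAUS8 in 3 comparisons, with dashed lines at 1.5-fold. HAUS2 and HAUS7 probe sets all lie below 0 with both AURKA siRNAs, while HAUS3, HAUS5 and HAUS6 each have a probe set at or near 0, and the MLN8237 panel runs from -0.44 to 0.40.

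Because both siRNAs were set against 1 siNT array, the DMSO array was used as a further control. The median of the 8 genes was -0.70 under siAURKA-1 and -0.27 under siAURKA-2 against DMSO. With siAURKA-1, 5 of the 8 were at least 1.5-fold lower than DMSO (3.57% of all genes), since HAUS6 came short of the line. With siAURKA-2, 1 was (2.55% of all genes). The control arrays differed for several members, in each case by less than 1.5-fold. On the siNT array the 4 T-III genes lay below DMSO, by -0.26 for HAUS1 to -0.06 for HAUS5. The T-II genes HAUS2 (0.23), HAUS6 (0.13) and HAUS8 (0.43) lay above it and HAUS7 was level (0.00). Of all 18239 genes, 7229 lay below DMSO on the siNT array and 8674 above, and a difference between the tetramers was not tested. The value of HAUS6 was not shared by its 4 probe sets, of which 2 were above DMSO, 1 below and 1 equal. In HAUS7, 1 probe set was above DMSO (0.16) and 2 were below (-0.07 and -0.05). HAUS5 had 1 probe set below (-0.12) and 1 equal, and HAUS1, HAUS4 and HAUS8 had 1 probe set each. The median of the T-II genes under siAURKA-2 was -0.33 against siNT and -0.10 against DMSO, and that of the T-III genes was -0.27 against siNT and -0.40 against DMSO. HAUS8 and HAUS6 were above DMSO under siAURKA-2, by 0.07 and 0.03. For siAURKA-1 the T-II medians were -0.81 against siNT and -0.70 against DMSO, and the T-III medians were -0.47 and -0.61.

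**Figure D3:**
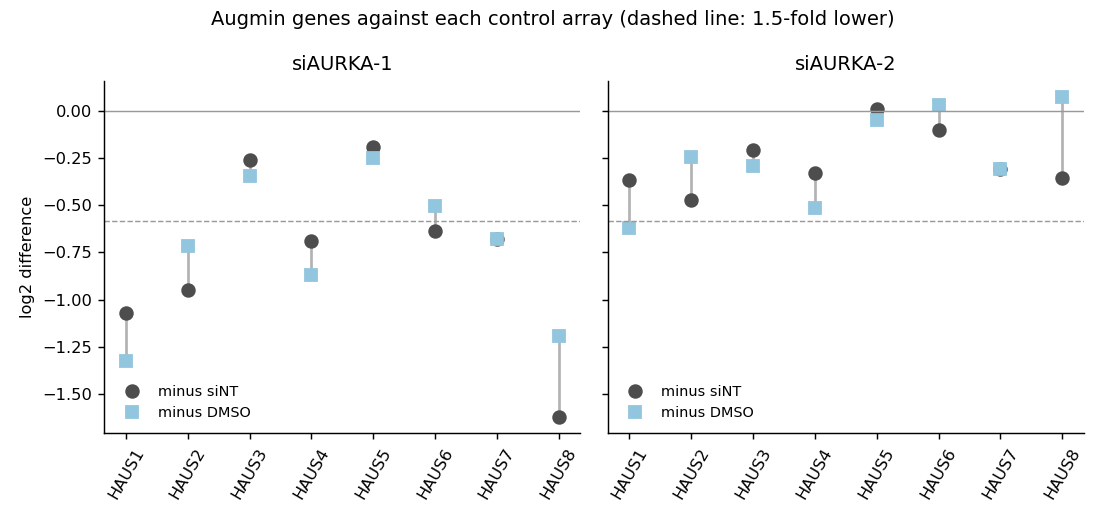
Log2 difference (vertical axis) of each augmin gene on the siAURKA-1 array (left) and the siAURKA-2 array (right), against siNT (circles) and against DMSO (squares), with the dashed line at 1.5-fold lower. All siAURKA-1 points are below 0 with either control, and HAUS8 differs most between the controls, between -1.62 and -1.19 for siAURKA-1 and between -0.36 and 0.07 for siAURKA-2.

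The siRNAs were also compared directly, which needs no control array. All 8 genes were lower under siAURKA-1 than under siAURKA-2, as were 8119 of all 18239 genes. The median difference of the 8 was -0.42, against 0.00 for all genes. HAUS8 (-1.27, 2.40-fold) and HAUS1 (-0.71, 1.63-fold) passed 1.5-fold, 2 of 8 members, against 3.99% of all genes at least 1.5-fold lower. HAUS3 differed least (-0.05), but its 3 probe sets gave -0.29, -0.05 and 0.01. The remaining signal of AURKA on these arrays was 9.71% of siNT under siAURKA-1 and 16.0% under siAURKA-2. A probe set that names the pseudogene AURKAP1 beside AURKA gave 4.35% and 10.6% of siNT.

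The bases before the start of transcription are shown for the 3 genes with the largest siAURKA-1 difference, HAUS8, HAUS1 and HAUS2, since these lay furthest below siNT. Each window is 250 bases long, from RefSeq on GRCh38.p14, written 5′ to 3′ on the strand of the gene. For HAUS8, RefSeq gives a pair of starts: the window before the start at the end of the annotated gene is chr19:17075534-17075783 (minus strand), and of that before an alternative start inside the gene the last 30 bases, chr19:17075453-17075482 (minus strand), are printed. The other positions are chr18:46104135-46104384 (plus strand) for HAUS1 and chr15:42548588-42548837 (plus strand) for HAUS2. Capitals mark the letters TTTGAA, the core of the cell cycle homology region (CHR) known from promoters of mitotic genes. A match to these 6 letters is not by itself such an element.
HAUS8 annotated start: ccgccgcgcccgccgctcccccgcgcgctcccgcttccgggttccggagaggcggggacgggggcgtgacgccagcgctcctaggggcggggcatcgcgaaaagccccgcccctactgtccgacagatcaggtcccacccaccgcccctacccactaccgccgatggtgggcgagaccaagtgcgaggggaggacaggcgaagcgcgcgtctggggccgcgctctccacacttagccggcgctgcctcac
HAUS8 alternative start: agggggcgggtccggcTTTGAAaagccggc
HAUS1: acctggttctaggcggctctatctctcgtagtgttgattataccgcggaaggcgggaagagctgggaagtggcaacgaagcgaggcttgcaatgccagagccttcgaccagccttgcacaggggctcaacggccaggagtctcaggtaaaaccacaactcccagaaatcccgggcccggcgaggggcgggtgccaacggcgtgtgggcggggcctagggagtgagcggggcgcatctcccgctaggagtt
HAUS2: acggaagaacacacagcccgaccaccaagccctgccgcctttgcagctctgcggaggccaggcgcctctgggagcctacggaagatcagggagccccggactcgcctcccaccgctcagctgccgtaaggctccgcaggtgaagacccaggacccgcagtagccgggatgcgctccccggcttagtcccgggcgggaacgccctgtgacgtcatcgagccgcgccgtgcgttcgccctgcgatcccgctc
The HAUS8 window of the annotated start holds no match, and the match of the alternative start lies downstream of the annotated one. The search used the CHR letters TTTGAA, the box CCAAT and, for E2F, the letters TTTCCCGC, TTTCGCGC, TTTGCCGC or TTTGGCGC, on both strands. RefSeq gave 10 windows for the 8 genes, with 2 alternative starts for HAUS7 and for HAUS8. The CHR letters were in 1 of the 10, the HAUS8 window of the alternative start, from 14 to 9 bases before it, and in 13.3% of all 35116 windows of this length. The CCAAT box was in 2 of the 10, both of HAUS7, and in 32.0% of all windows. The E2F letters were in 0 of the 10 and in 2.8% of all windows. These matches describe the letters in the windows and say nothing of binding.

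Augmin works with the gamma-tubulin ring complex. Of 16 listed genes of that complex, of microtubule branching and of partners such as CDK1, 15 were measured. Their median difference from siNT was -0.08 under siAURKA-1 and 0.00 under siAURKA-2, and from DMSO it was 0.00 with MLN8237. With siAURKA-1, 3 of the 15 reached 1.5-fold, all of them lower, against 4.48% of all genes: MZT1, a small ring complex subunit (-0.87), CDK1, the kinase that drives mitotic entry (-0.83), and TUBG1, encoding gamma-tubulin itself (-0.61). NEDD1, the adaptor that links augmin to the ring, gave -0.43 under siAURKA-1 and -0.71 under siAURKA-2, the reverse order of the augmin genes, and it was the only gene of the 15 at least 1.5-fold lower under siAURKA-2, against 3.11% of all genes. TUBGCP3, a core ring subunit, was 0.68 above siNT under siAURKA-2, yet 0.03 above DMSO, since siNT minus DMSO was -0.65 for it. TUBGCP5, a further ring subunit, gave -0.10 and -0.24 under siAURKA-1 and siAURKA-2. TPX2, the Aurora A activator that also takes part in branching, gave -0.39 and 0.07.

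Of 17 listed spindle pole proteins and mitotic kinases, 16 were measured, with medians of -0.22 under siAURKA-1 and -0.08 under siAURKA-2 against siNT, and 0.02 with MLN8237 against DMSO. With siAURKA-1, 4 of the 16 reached 1.5-fold, all of them lower, against 4.48% of all genes: KIF15, a spindle kinesin (-1.21), HMMR, a spindle assembly protein (-1.13), AURKB, the kinase of the chromosomal passenger complex (-0.95), and CEP152, a centriole duplication scaffold (-0.66), which is named after its value was seen. With siAURKA-2, 0 of the 16 reached 1.5-fold, against 3.11% of all genes lower and 1.96% higher, and HMMR lay above siNT (0.32). CLTC (-0.58) and PRC1 (0.57), both named after their values were seen, came just short of that line. Against DMSO they gave -0.34 and 0.10 under siAURKA-2. PLK1, a kinase that helps bring augmin to the spindle, differed little under siAURKA-1 (-0.04), siAURKA-2 (-0.10) and MLN8237 (0.01). Of these 3 lists, augmin had the lowest median in both siRNA comparisons. The complex was selected on differences between these same arrays, so this order cannot set it apart from the other lists, and it was not tested.

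**Figure D4:**
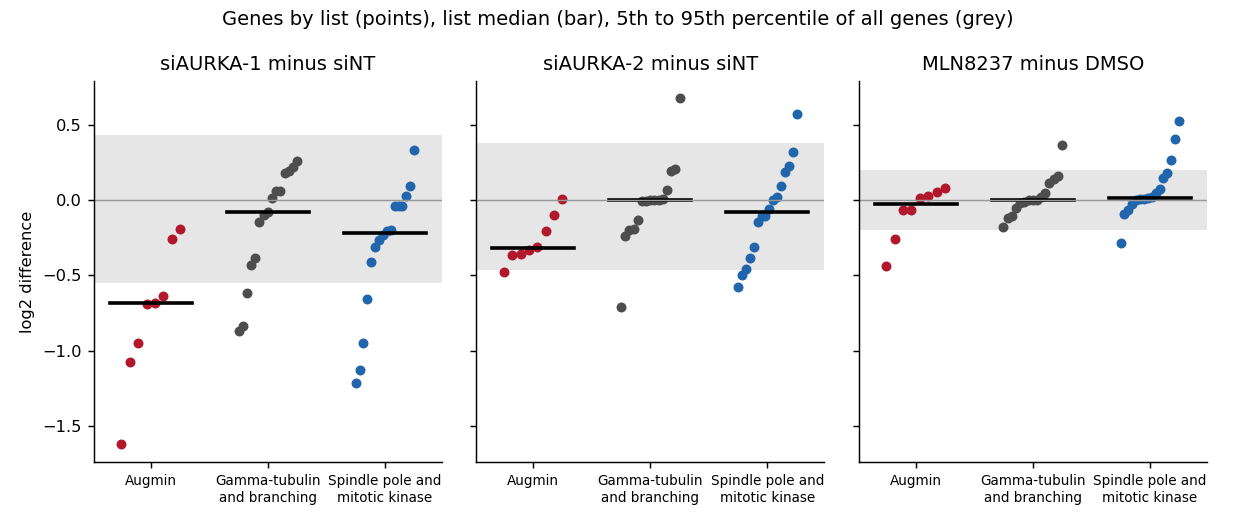
Log2 difference (vertical axis) of the genes of 3 lists (points) with the list median (bar), and the 5th to 95th percentile of all 18239 genes (grey band), in 3 comparisons. Of the augmin genes, 6 lie below the band under siAURKA-1 (lower edge -0.54), 1 under siAURKA-2 (lower edge -0.46) and 2 with MLN8237 (lower edge -0.19).

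HAUS8 was the member with the widest range over the 5 arrays (1.62), and the genes of most similar pattern were sought among the other 11822 genes with at least 2 probe sets. Likeness was the mean absolute difference of the centred log2 values over the 5 arrays. The 5 nearest were LYRM7 (0.06), RXYLT1 (0.09), CYP24A1 (0.10), CCDC14 (0.10) and CDC42 (0.10). LYRM7 read -1.03 under siAURKA-1, 0.00 under siAURKA-2 and 0.45 with siNT, and 0.00 with both MLN8237 and DMSO. Like HAUS8 it was lowest under siAURKA-1 and highest with siNT, and its other arrays were tied. In RXYLT1 the siAURKA-2 (0.31) and siNT (0.31) arrays were level, and CYP24A1, CCDC14 and CDC42 had their siNT values closer to 0, at 0.05, 0.19 and 0.12.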

How the data were processed

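The table held 1 value per probe set for each of the 5 arrays. The values, taken as log2 signal, were made by the authors with RMA (robust multi-array average: background correction, quantile normalization and median polish), per the submitters' processing notes. Which software and which log base were used, and why values were centred per probe set, was not given in the sources used here. Of 49386 probe sets, 45253 named 1 gene and were used, and 1327 naming several, 2713 without a gene and 93 controls were left out. Symbols were updated by Entrez number (45172 matched).

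Differences between arrays were computed per gene with Python 3.11.15 and pandas 2.3.3, and the code was tested on simulated data. With 1 array per treatment no test was run. Comparisons were each AURKA siRNA minus siNT, MLN8237 minus DMSO, siNT minus DMSO and siAURKA-1 minus siAURKA-2. Each list is described by its median and its counts past 1.5-fold.

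The members, lists and thresholds were chosen with earlier results of these data known. Named genes were all 8 members, AURKA, NEDD1, TUBG1, TPX2 and PLK1, the 4 and 3 listed genes with the largest difference in an siRNA or MLN8237 comparison, and the 5 genes nearest to the member of widest range. Alternatives were the mean of probe sets, only probe sets with a plain _at ending, arrays centred on their own median, a change of control (the other one or the mean of both), other folds, and each member left out. A median of probe-set differences and the probe sets naming TREX2 beside HAUS7 were added after the data were seen.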

Additional observations from a re-analysis of the deposited data

Results flagged for a closer look

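HAUS5 was the one augmin gene whose difference from siNT had opposite signs with the siRNAs, -0.19 with siAURKA-1 and 0.01 with siAURKA-2. The gap between them was -0.20. It rests on 1 array each and was not tested. The sign for siAURKA-2 turned with the processing: it was -0.049 with DMSO as control, -0.020 with the mean of both controls and -0.032 with the plain _at probe set alone. Against DMSO, HAUS5 was lower with both siRNAs, and the genes with opposite signs were HAUS6 (-0.51 and 0.03) and HAUS8 (-1.19 and 0.07).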

How the results depend on the processing

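A value was taken as unmoved when it shifted by less than 0.138, the standard deviation over genes of siNT minus DMSO, divided by root 2. Of 99 alternative values of the medians and counts, 88 did not move (counts: by no more than 1.5 times) and 11 did. Of 188 for single members, 167 did not move and 21 did, and no value past 1.5-fold changed sign. Some alternatives could not move a value, so these counts overstate stability. Centring the arrays subtracted 0, and the TREX2 probe sets concern HAUS7 alone. For members with 1 or 2 probe sets, the mean of probe sets and the median of probe-set differences return the main difference. With only plain _at probe sets, which leave 3 members (HAUS3, HAUS5 and HAUS6), the median was -0.34 for siAURKA-1 and -0.045 for siAURKA-2 against siNT, and the count past 1.5-fold was 0 for siAURKA-1 against siNT and 0 for siAURKA-1 against siAURKA-2. HAUS1, HAUS2, HAUS4, HAUS7 and HAUS8 have no such probe set. At 2-fold the count was 2 for siAURKA-1 against siNT and 1 against siAURKA-2 (1.38% and 1.19% of all genes lower). At the lowest threshold tried (0.322 in log2) it was 4 lower for siAURKA-2 against siNT (8.16% of all genes), 1 lower for MLN8237 against DMSO (1.16%), 1 higher for siNT against DMSO (5.71%) and 6 lower for siAURKA-1 against siAURKA-2 (9.18%). With DMSO as control, siAURKA-2 gave 1. Including the probe sets that name TREX2 took HAUS7 to -0.85 with siAURKA-1. No paired analysis was possible because each treatment had 1 array, and without replicates no array could be left out.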
